A study of Mus musculus with 9 samples.

Results

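Protein kinase C (PKC) is a family of serine/threonine kinases, and 6 of its genes, Prkcd, Prkca, Prkcb, Prkce, Prkch and Prkcz, are described here out of the 22601 genes of a single-cell RNA-seq table. They were taken by name, and all 6 were in the table. The 9 samples form 1 group, made of cells dissociated from microdissected central amygdala of wild-type B6 mice, with several acute slices pooled. The labels give no treatment, age or sex. Among 829 cells, 810 were inhibitory neurons, which were positive for Gad1, Gad2 or Slc32a1 (genes of GABA synthesis and vesicular GABA transport) and for neither glutamate transporter gene Slc17a7 nor Slc17a6. Positive here means that a gene reached 1 count per 10000 gene counts of the cell. Gad1 was positive in 89.6%, Gad2 in 94.9% and Slc32a1 in 16.7% of these neurons, which follows in part from the rule. The groups compared are Prkcd-negative and Prkcd-positive neurons of the same samples, and Prkcd-negative neurons positive or negative for Sst, Isl1, Nr2f2 or Foxp1.

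PKC enzymes are commonly activated downstream of receptors that couple to Gq and phospholipase C, which makes the lipid messenger diacylglycerol and releases calcium. Conventional isoforms such as PKC alpha (Prkca) and PKC beta (Prkcb) respond to both signals, PKC delta (Prkcd), epsilon (Prkce) and eta (Prkch) respond to diacylglycerol without calcium, and the atypical PKC zeta (Prkcz) responds to neither. In the central amygdala, PKC delta is the classical marker of a class of GABAergic neurons of the lateral division. Somatostatin (Sst) marks another large class, while Isl1 (a LIM homeodomain factor), Nr2f2 (the nuclear receptor COUP-TFII) and Foxp1 (a forkhead factor) are transcription factor genes that divide forebrain neurons further.

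The samples held 85 to 95 cells, of which 82 to 95 were inhibitory neurons, and 8522750 to 22730327 gene counts. The neurons had a median of 126576 gene counts, with sample medians of 96675 to 227570. Of 376 cell barcodes, 368 occurred in more than 1 sample, and 0 cells had identical counts. Slc17a7 and Slc17a6 were positive in 0 of the 810 neurons by the rule. Mbp, a myelin gene of oligodendrocytes, reached the threshold in 22.3% of Prkcd-negative neurons and in 30.9% of Prkcd-positive neurons. The summed level of 6 oligodendrocyte genes was 68.0 to 123 CPM (counts per 1000000 gene counts of a summed class) in Prkcd-negative neurons of 8 samples and 4678 CPM in sample 5, against 139 to 215 CPM in Prkcd-positive neurons. Its part in the results was not tested, but the values without Mbp-positive neurons are given where they change a call. The sources used here do not say whether the 9 samples are separate animals, so p-values speak only of the spread among these samples.

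The sequences before the start sites of Prkcd and Prkcb are shown because Prkcd divides the cells and Prkcb was called higher in Prkcd-negative neurons. Both are the 250 bases before the RefSeq start (build GRCm38.p6), read 5′ to 3′ on the strand of the gene. Prkcd lies at chr14:30626209-30626458 on the minus strand, from the first of its start sites in the table, and Prkcb at chr7:122288875-122289124 on the plus strand. Capitals mark matches on either strand to the E-box CACGTG, the GC box GGGCGG and the TATA box TATAAA.
Prkcd: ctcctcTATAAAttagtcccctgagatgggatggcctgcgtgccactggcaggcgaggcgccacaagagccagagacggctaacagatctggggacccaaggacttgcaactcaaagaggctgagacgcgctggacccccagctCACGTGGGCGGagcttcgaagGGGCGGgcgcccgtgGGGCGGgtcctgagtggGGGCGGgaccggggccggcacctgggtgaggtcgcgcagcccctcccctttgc
Prkcb: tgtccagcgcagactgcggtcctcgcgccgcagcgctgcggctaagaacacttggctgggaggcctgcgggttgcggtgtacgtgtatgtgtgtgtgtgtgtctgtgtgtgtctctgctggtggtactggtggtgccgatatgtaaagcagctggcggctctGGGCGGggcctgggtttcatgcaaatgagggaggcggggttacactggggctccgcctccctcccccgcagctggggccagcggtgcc
The Prkcd stretch held 1 E-box, which overlaps the first of its 4 GC boxes, and had a GC content of 67.6%. Its 1 match to the TATA box letters lies near the end farthest from the start site. That of Prkcb held 1 GC box and had a GC content of 65.2%. Among 32851 RefSeq promoter stretches of this length, 6.02% held an E-box, 32.7% a GC box and 12.4% a TATA box. The letters AGGTCA (a nuclear receptor half-site, in 14% of the stretches), CTAATG (a LIM homeodomain site, in 6.36%) and TGTTTAC (a forkhead site, in 3.17%) had 0 matches in either. The stretch before the other Prkcd start site held 0 matches to any of these letters and had a GC content of 50.8%. A stretch was also found for Prkca and Prkcz, so 4 of 6 genes matched. Prkce and Prkch are named only.

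Prkcd, the gene of PKC delta, spread from 0 to high levels with no empty gap at the level that separates positive from negative cells. It was positive in 343 neurons and negative in 467. The positive share was 42.5% ± 6.87 (SD, n = 9 samples), lowest at 29.5% in sample 4 and highest at 52.2% in sample 2. By date field it averaged 47.6%, 35.7% and 44.1%. No count of Prkcd was present in 312 neurons, or 38.4% ± 5.78 of a sample. A further 155 neurons (19.1% ± 5.63) had a count but stayed below the threshold, at a median of 0.0912 per 10000. Levels of 1 to under 3 per 10000 were found in 67 neurons (8.44% ± 4.65), of 3 to under 10 in 176 (21.9% ± 3.15), and of 10 or more in 100 (12.1% ± 7.44). The share at 10 or more was the most uneven of these, at 2.44% in the lowest and 25% in the highest sample.

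**Figure D1:**
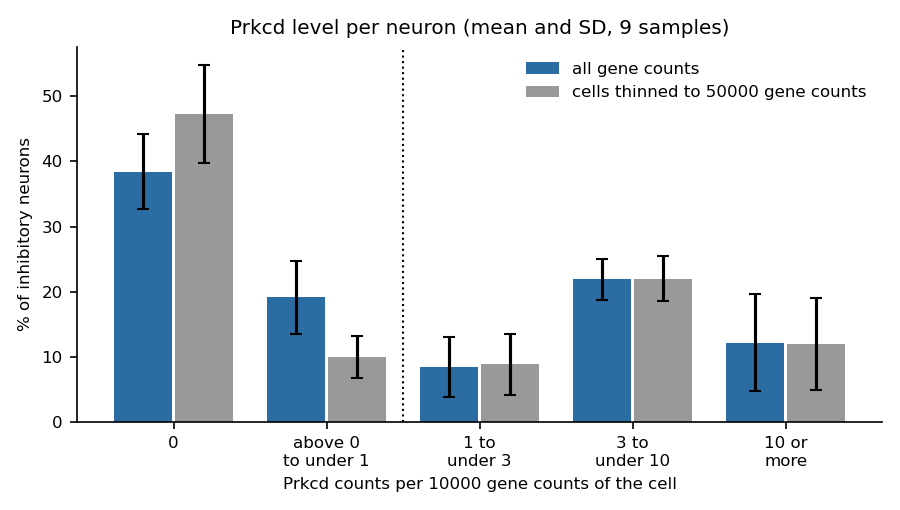
Share of inhibitory neurons (%, y axis) in 5 ranges of Prkcd counts per 10000 gene counts (x axis), as mean and SD over 9 samples, from all gene counts (blue) and after each cell was thinned to 50000 counts (grey). The dotted line marks the level from which a neuron is positive, and the fewest neurons from all counts lie just above it, at 8.44% ± 4.65.

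Among positive neurons the median was 6.78 per 10000, with quartiles at 3.65 and 10.6 and a highest value of 32.2. The median in positive neurons of a sample was 3.72 in the lowest and 9.29 in the highest sample. The levels nearest below the threshold were 0.980, 0.982 and 0.993, and those nearest above it were 1.05, 1.07 and 1.08 per 10000. Only 19 neurons lay between 0.5 and 1 and 17 between 1 and 1.5. Positive neurons held 98.6% of all Prkcd counts, and the 100 neurons at 10 or more held 53.5%. As the split requires, Prkcd averaged 7.96 ± 3.2 CPM in Prkcd-negative neurons and 757 ± 175 CPM in Prkcd-positive neurons. When each cell was thinned to 50000 counts, which left 789 neurons, 376 were at 0 and 77 were above 0 and below the threshold. The positive count then was 336, so thinning moved neurons mainly between those ranges.

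Prkcd was low in cells with Sst or Isl1 even when those cells reached the threshold. Of 148 Sst-positive neurons 84.5% were Prkcd-negative, and of 76 Isl1-positive neurons 84.2%. The 23 neurons positive for both Prkcd and Sst had a median Prkcd level of 2.17 per 10000, against 7.04 in Prkcd-positive neurons without Sst. The 12 with Isl1 had a median of 2.56 against 6.89 without. Nr2f2 and Foxp1 overlapped more with Prkcd, since 59.5% of 116 Nr2f2-positive and 70.7% of 167 Foxp1-positive neurons were Prkcd-negative. Of all 810 inhibitory neurons, 467 were Prkcd-negative, so the Nr2f2 share was near that of all neurons. Prkcd-positive cells with Nr2f2 or Foxp1 had medians of 5.51 (47 cells, against 6.83 without Nr2f2) and 7.04 (49 cells, against 6.66 without Foxp1). These medians describe the cells, and no test was made on them.

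Prkcb was higher and Prkce lower in Prkcd-negative neurons than in Prkcd-positive neurons, while Prkca and Prkcz did not pass the test. Counts were summed per sample and class and tested with edgeR's quasi-likelihood test, with the sample as a block and Benjamini-Hochberg adjustment over 11486 genes. Of the 5 isoforms tested, 1 was called higher and 1 lower at an adjusted p under 0.05, where 9.74% of all genes were called higher and 7.59% lower. Among those 11486 genes the median log2 fold change was 0.02, and among the 5 isoforms 0.13.

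Prkcb, the calcium-dependent PKC beta, ranged in Prkcd-negative neurons over a lowest, median and highest sample value of 153, 265 and 352 CPM. Prkcd-positive neurons had 98.1, 161 and 185 CPM. The class ranges overlapped, although each of the 9 samples had more Prkcb in its Prkcd-negative neurons. The means were 244 ± 69.8 CPM in Prkcd-negative neurons and 153 ± 28.0 CPM in Prkcd-positive neurons (SD, n = 9), a log2 fold change of 0.61 ± 0.12 (SE, edgeR adjusted p = 0.00272). Samples 7 to 9, which share a date field, were the lowest in Prkcd-negative neurons, at 161, 153 and 175 CPM. The mean log2 ratio within the date fields was 0.82, 0.80 and 0.30, and within the animal numbers 1.02, 0.44 and 0.44, so its direction was the same in each. With a positive cell defined by 1 count, the log2 fold change was 0.42 and the call was lost (adjusted p = 0.0578).

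Prkce, the calcium-independent PKC epsilon, was 285, 336 and 372 CPM in the lowest, median and highest sample of Prkcd-negative neurons and 342, 435 and 487 CPM in those of Prkcd-positive neurons. Its level was lower in Prkcd-negative neurons of 8 samples, and sample 1 was the exception with 347 against 342 CPM. The means were 324 ± 32.3 CPM in Prkcd-negative neurons and 424 ± 51.6 CPM in Prkcd-positive neurons (log2 fold change -0.41 ± 0.08, edgeR adjusted p = 0.00189, n = 9). Mean log2 ratios were -0.25, -0.46 and -0.44 within the date fields. This call held under all 19 other settings run. Without Mbp-positive neurons Prkcb was at 0.80 (adjusted p = 0.00595) and Prkce at -0.41 (adjusted p = 0.00738).

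Prkch, which encodes PKC eta, was rare, with 422 counts in all Prkcd-negative neurons and 585 in all Prkcd-positive neurons. It ranged over 0, 2.99 and 18.1 CPM (lowest, median, highest sample) in Prkcd-negative neurons and 3.24, 13.6 and 31.4 CPM in Prkcd-positive neurons. The values were lower in Prkcd-negative neurons of 7 samples, with wide overlap. The log2 fold change of -2.23 ± 0.94 did not pass with edgeR (adjusted p = 0.132, n = 9 samples), and DESeq2 called it (-2.32, adjusted p = 0.00324), as did the threshold of 3 per 10000 (-1.88, adjusted p = 0.0465).

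Prkca, the conventional PKC alpha, averaged 38.1 ± 8.72 CPM in Prkcd-negative neurons and 35.1 ± 20.02 CPM in Prkcd-positive neurons (log2 fold change 0.27 ± 0.22, edgeR adjusted p = 0.489). The atypical Prkcz averaged 97.8 ± 15.4 CPM in Prkcd-negative neurons and 87.4 ± 12.8 CPM in Prkcd-positive neurons (0.13 ± 0.12, edgeR adjusted p = 0.551). Both were higher in Prkcd-negative neurons of 6 samples and lower in 3. In brain, Prkcz also gives the shorter kinase PKM zeta from an internal start, and counts per gene symbol do not separate the forms.

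**Figure D2:**
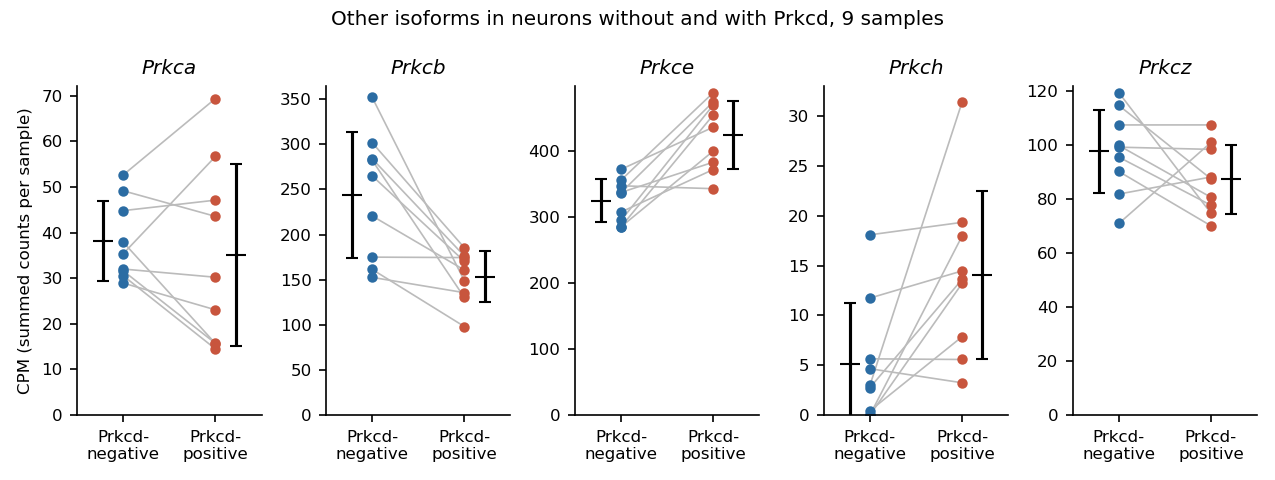
Level of 5 PKC genes (CPM of summed counts, y axes starting at 0) in Prkcd-negative (blue) and Prkcd-positive (red) neurons, with 1 point per class and sample, lines joining the classes of a sample, and bars for mean and SD over 9 samples. Prkcb is higher in Prkcd-negative neurons of 9 samples and Prkce lower in 8.

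Summed over the 5 other isoforms in each class, the level in Prkcd-negative neurons was not clearly above or below that in Prkcd-positive neurons. The sum was 709 ± 78.0 CPM in Prkcd-negative neurons and 714 ± 65.0 CPM in Prkcd-positive neurons, a difference of -4.65 ± 93.3 CPM (SD of the differences, n = 9). It was higher in Prkcd-negative neurons of 3 samples and lower in 6. With Prkcd included, the sum was 717 ± 77.2 CPM in Prkcd-negative neurons and 1470 ± 157 CPM in Prkcd-positive neurons. The larger sum in Prkcd-positive neurons follows from the split by Prkcd. These sums are of counts, not corrected for transcript length, and no test was made on them.

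Cell by cell, nearly all neurons without Prkcd were positive for another isoform. None of the 5 others was positive in 13 of 467 Prkcd-negative neurons (2.78%) and in 19 of 343 Prkcd-positive neurons (5.54%). Prkcb was positive in 66.0% (95% exact binomial interval 61.5 to 70.2) of Prkcd-negative neurons and in 45.8% (40.4 to 51.2) of Prkcd-positive neurons. These intervals cover counting error only. Thinned to equal depth, the share for Prkcb was 67.5% in Prkcd-negative and 45.8% in Prkcd-positive neurons. Prkce was positive in 83.1% of Prkcd-negative and 86.9% of Prkcd-positive neurons, Prkcz in 37.7% of Prkcd-negative and 31.2% of Prkcd-positive neurons, and Prkca in 12.8% of both. Prkch was positive in 2.36% of Prkcd-negative and 5.25% of Prkcd-positive neurons. Median depth was 130131 counts in Prkcd-negative and 120868 counts in Prkcd-positive neurons. Prkcb and Prkce were both positive in 55.0% of Prkcd-negative and 40.8% of Prkcd-positive neurons. Prkce without Prkcb was found in 28.1% of Prkcd-negative and 46.1% of Prkcd-positive neurons.

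Across the 5 ranges of Prkcd level, low to high, Prkcb averaged 253, 231, 195, 152 and 135 CPM. Prkce averaged 324, 325, 295, 442 and 468 CPM over the same ranges. Prkcb was thus lower at each higher range, and Prkce was higher in the upper pair of ranges than in the lower ones. Prkcz averaged 99.5, 95.7, 82.0, 77.6 and 112 CPM, and Prkca 30.0, 50.9, 53.5, 32.9 and 25.8 CPM, with no steady direction in either. The ranges of 1 to under 3 and of 10 or more had enough cells in 7 samples, and the means are descriptions.

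**Figure D3:**
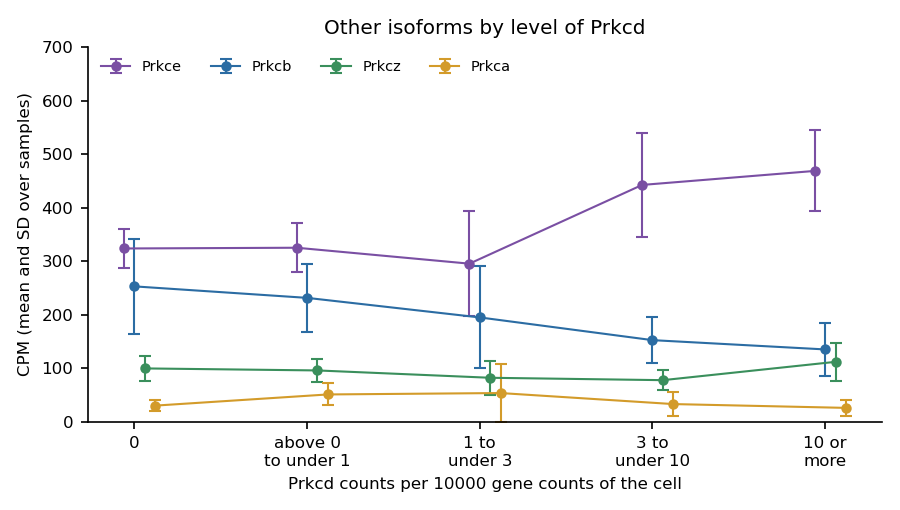
Level of Prkce, Prkcb, Prkcz and Prkca (CPM, y axis, mean and SD over samples) in neurons grouped by Prkcd counts per 10000 (x axis, low to high). Prkcb averages 253 CPM at 0 and 135 CPM at 10 or more, and Prkce 324 and 468 CPM.

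Within Prkcd-negative neurons, edgeR made 1 call among the isoforms over the 4 splits by marker, a lower Prkcb in Nr2f2-positive cells, which passed in 8 of 19 other settings. There were 125 Sst-positive, 64 Isl1-positive, 69 Nr2f2-positive and 118 Foxp1-positive cells, 52 of them with at least 2 of these markers, and 145 cells with none. Sample 3 had 4 Nr2f2-positive cells and was left out of the Nr2f2 comparisons. Prkch had too few counts to be tested in these 4 splits. Of 4 isoforms tested in each, edgeR called 0 for Sst, 0 for Isl1, 1 lower for Nr2f2 and 0 for Foxp1. Among all genes, 1.34% were called higher and 0.874% lower for Sst (2.21% either way), 0.41% and 0.576% for Isl1 (0.986%), 0.179% and 0.814% for Nr2f2 (0.993%), and 0.18% and 0.0664% for Foxp1 (0.247%). At an unadjusted p under 0.05 there were 1, 1, 2 and 1 isoforms for Sst, Isl1, Nr2f2 and Foxp1. All genes at that level numbered 1483 of 10531, 1435 of 10243, 1250 of 10074 and 1149 of 10535. DESeq2 called 0, 1, 2 and 1 isoforms, and it called more of all genes than edgeR did. Its calls were 340 higher and 644 lower for Sst, and 194 and 833 for Isl1. For Nr2f2 they were 143 and 766, and for Foxp1 145 and 434. Among all genes the median log2 fold change was -0.17 for Sst, -0.33 for Isl1, -0.31 for Nr2f2 and -0.19 for Foxp1. Fold changes below are to be read against these medians.

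Nr2f2-positive neurons had 89.4, 161 and 231 CPM of Prkcb in the lowest, median and highest of 8 samples. Prkcb was lower in Nr2f2-positive than in Nr2f2-negative neurons of each of these samples. The means were 153 ± 46.6 CPM in Nr2f2-positive and 256 ± 74.2 CPM in Nr2f2-negative neurons (log2 fold change -0.76 ± 0.16, edgeR adjusted p = 0.0352, n = 8). The mean log2 ratio was -0.81, -0.69 and -0.77 within the date fields. The call was lost when sample 1, 2, 4, 6, 7 or 9 was left out (adjusted p 0.071 to 0.0919), without the sample block (0.106), at 1 count (0.0529), at 3 per 10000 (0.483), without Mbp-positive neurons (0.258) and with Prkcd-negative neurons limited to 0 counts (0.149). Prkca was also low in Nr2f2-positive neurons, at 18.3 CPM against 42.5 CPM in Nr2f2-negative neurons of the same samples, and did not pass (-1.86 ± 0.87, edgeR adjusted p = 0.401). DESeq2 called it (-1.87, adjusted p = 0.0472). Prkce was at -0.29 ± 0.13 (edgeR adjusted p = 0.401) and Prkcz at -0.15 ± 0.25 (0.848).

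Isl1-positive neurons had less Prkcb in each of 9 samples, at 32.0, 147 and 256 CPM (lowest, median, highest) against 159, 267 and 375 CPM in Isl1-negative neurons. The log2 fold change of -0.78 ± 0.26 did not pass with edgeR (adjusted p = 0.200), and DESeq2 called it (-0.74, adjusted p = 0.0373). Sample 2 was the lowest among Isl1-positive neurons. Prkca, Prkce and Prkcz were at -0.13 ± 0.54, -0.21 ± 0.16 and -0.01 ± 0.19, with edgeR adjusted p of 0.926, 0.578 and 0.981.

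Foxp1-positive neurons had more Prkcb in 7 of 9 samples, at 172, 289 and 609 CPM against 126, 212 and 305 CPM in Foxp1-negative neurons. The log2 fold change of 0.58 ± 0.19 did not pass with edgeR (adjusted p = 0.265), and DESeq2 called it (0.62, adjusted p = 0.022). Prkca was at -1.08 ± 0.54 (edgeR adjusted p = 0.495), with 25.02 ± 15.3 CPM in Foxp1-positive and 42.9 ± 10.7 CPM in Foxp1-negative neurons. Prkce and Prkcz were both at 0.09, with SE of 0.12 and 0.17.

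Sst-positive neurons had 283 ± 97.1 CPM of Prkcb, against 231 ± 67.1 CPM in Sst-negative neurons. It was higher in 8 of 9 samples and did not pass (0.30 ± 0.12, edgeR adjusted p = 0.256). Prkca was at 0.46 ± 0.36 (edgeR adjusted p = 0.626), Prkce at -0.02 ± 0.13 (0.971) and Prkcz at 0.03 ± 0.23 (0.979).

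**Figure D4:**
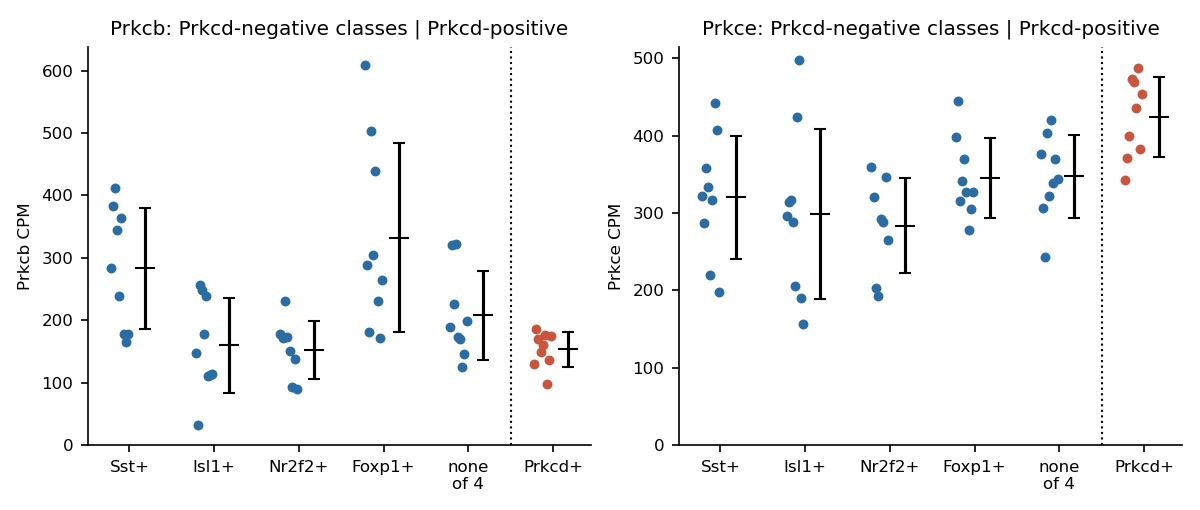
Level of Prkcb (left) and Prkce (right) in CPM (y axes starting at 0) in classes of Prkcd-negative neurons (blue: Sst, Isl1, Nr2f2 or Foxp1 positive, or none of the 4) and in Prkcd-positive neurons (red, right of the dotted line), with 1 point per sample and bars for mean and SD. Prkcb averages 283 CPM with Sst and 332 CPM with Foxp1, against 153 CPM in Prkcd-positive neurons.

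Set against Prkcd-positive neurons, edgeR called a higher Prkcb in Sst-positive and Foxp1-positive cells and a lower Prkce in Isl1-positive and Nr2f2-positive cells, and no test compared the classes with each other. These 4 comparisons share the Prkcd-positive neurons, so they are not independent of each other. Of the isoforms tested (4 for Nr2f2, 5 for the others), edgeR called 1 higher for Sst, 2 lower for Isl1, 1 lower for Nr2f2 and 1 higher for Foxp1. Among all genes, 3.52% were called higher and 4.04% lower for Sst (7.56% either way), 4.65% and 6.92% for Isl1 (11.6%), 1.09% and 2.06% for Nr2f2 (3.15%), and 2% and 3.22% for Foxp1 (5.22%). Among all genes the median log2 fold change was -0.16 for Sst, -0.35 for Isl1, -0.30 for Nr2f2 and -0.19 for Foxp1. It was thus lowest for Isl1 and Nr2f2, the classes with a lower Prkce called, and fold changes are to be read against it.

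Prkcb in Prkcd-negative Sst-positive neurons was at 165, 283 and 413 CPM (lowest, median, highest sample) and above the Prkcd-positive neurons in 9 of 9 samples. The log2 fold change was 0.85 ± 0.15 (edgeR adjusted p = 0.00194), with mean log2 ratios of 1.15, 0.94 and 0.39 within the date fields. This call was lost at 1 count (0.45, adjusted p = 0.185) and with Prkcd-negative neurons limited to 0 counts (0.72, adjusted p = 0.0713). In Foxp1-positive neurons Prkcb was also higher in 9 of 9 samples, at 0.98 ± 0.20 (edgeR adjusted p = 0.00857), with 0.98, 1.33 and 0.72 within the date fields. That call held under all 19 other settings run. In Isl1-positive and Nr2f2-positive neurons Prkcb was at -0.09 ± 0.27 (adjusted p = 0.868) and -0.05 ± 0.20 (adjusted p = 0.932) by edgeR.

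Prkce averaged 299 ± 110 CPM in Prkcd-negative Isl1-positive neurons and 424 ± 51.6 CPM in Prkcd-positive neurons, lower in 8 of 9 samples (-0.60 ± 0.17, edgeR adjusted p = 0.0295). The call was lost when sample 4, 5, 8 or 9 was left out (adjusted p 0.0611 to 0.0888). In Nr2f2-positive neurons Prkce averaged 283 ± 61.4 CPM, against 427 ± 54.3 CPM in Prkcd-positive neurons, lower in 7 of 8 samples (-0.64 ± 0.16, edgeR adjusted p = 0.0441). Leaving out sample 2, 4, 5, 6, 7, 8 or 9 lost that call (0.0504 to 0.109). Mean log2 ratios within the date fields were -0.26, -0.65 and -0.84 for Isl1 and -0.07, -1.03 and -0.56 for Nr2f2. Sst-positive and Foxp1-positive neurons were at -0.42 ± 0.14 (adjusted p = 0.0818) and -0.33 ± 0.12 (adjusted p = 0.132) by edgeR. For Prkce in the Sst class, DESeq2 (-0.39, adjusted p = 0.0315) and the threshold of 3 per 10000 (-0.55, adjusted p = 0.0308) gave a call, and in the Foxp1 class 1 count did (-0.34, adjusted p = 0.0314). Both Isl1 and Nr2f2 calls of Prkce were also lost at 1 count, at 3 per 10000, without Mbp-positive neurons and with Prkcd-negative neurons limited to 0 counts, and that of Nr2f2 with median-of-ratios scaling and with thinned counts. The Isl1 comparison had 2 samples at 3 per 10000, where 2 of all genes were called higher and 7 lower. It had 3 samples at the limit of 0 counts. A loss in these Isl1 settings cannot be told apart from the effect of fewer samples.

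Prkch had 44 counts in Isl1-positive Prkcd-negative neurons and 585 in Prkcd-positive neurons, lower in 8 of 9 samples (-4.27 ± 1.26, edgeR adjusted p = 0.0411). Samples 1, 2, 3, 6, 7, 8 and 9 each ended this call when left out (adjusted p 0.0731 to 0.0911), as did having no filter, no block, 1 count, 3 per 10000 or the limit of 0 counts. At 3 per 10000 and at the limit of 0 counts few samples were left, so those losses cannot be told apart from that. In Nr2f2-positive neurons 1 count of Prkch was found, too few to test. Sst-positive and Foxp1-positive neurons were at -3.50 ± 1.17 (adjusted p = 0.0928) and -2.38 ± 1.33 (adjusted p = 0.403) by edgeR, while DESeq2 called both (-3.72, adjusted p = 0.000846, and -2.70, adjusted p = 0.0245). Prkca was at 0.58 ± 0.32 in Sst-positive, 0.08 ± 0.48 in Isl1-positive, -1.52 ± 1.01 in Nr2f2-positive and -0.73 ± 0.57 in Foxp1-positive neurons, and Prkcz at 0.14 ± 0.24, 0.11 ± 0.19, 0.01 ± 0.26 and 0.19 ± 0.18 in those classes, none of which passed.

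The mean sum of the 5 other isoforms differed between the Prkcd-negative classes more than between all Prkcd-negative and all Prkcd-positive neurons. The classes are smaller, so their means are less precise, and the marker classes share some cells. No test was made on these sums. It was 816 ± 188 CPM with Foxp1, 759 ± 126 CPM with Sst, 695 ± 95.7 CPM with none of the markers, 601 ± 143 CPM with Isl1 and 549 ± 77.1 CPM with Nr2f2, against 714 ± 65.0 CPM in Prkcd-positive neurons. The neighbours in this order lie within 1 SD of each other. With Nr2f2 the sum was below that of Prkcd-positive neurons in 7 of 8 samples, a difference of -166 ± 137 CPM (SD, n = 8), and below that of Nr2f2-negative neurons in 8 of 8. Against Prkcd-positive neurons (n = 9), the difference with Foxp1 was 103 ± 210 CPM, higher in 5 samples and lower in 4. With Sst it was 45.8 ± 151 CPM (7 higher, 2 lower), and with Isl1 -113 ± 129 CPM (3 higher, 6 lower). Prkcb was positive in 78.4% of Sst-positive, 76.3% of Foxp1-positive, 60.7% of marker-free, 53.1% of Isl1-positive and 52.2% of Nr2f2-positive cells. Thinned to equal depth, these shares were 78.2%, 75.8%, 63.6%, 64.6% and 50% in the same classes, whose members were chosen again from the thinned counts. Neither Prkcb nor Prkce was positive in 13 of 69 Nr2f2-positive cells (18.8%), against 5.996% of all Prkcd-negative and 8.16% of Prkcd-positive neurons. These are shares of pooled cells. By sample the share was 17.9% ± 12.9 (SD) with Nr2f2, from 0% to 37.5%. It was 6.16% ± 3.09 in all Prkcd-negative and 7.99% ± 5.09 in Prkcd-positive neurons, and no test was made.

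Beyond the 6 isoforms, a further pair of PKC genes was low. Prkci (the atypical PKC iota) averaged 19.2 CPM in Prkcd-negative neurons and 17.4 CPM in Prkcd-positive neurons and did not pass with edgeR (log2 fold change 0.33 ± 0.33, adjusted p = 0.570). Prkcq (PKC theta) had 104 counts in Prkcd-negative neurons, 96 of them in Sst-positive cells, and 8 in Prkcd-positive neurons, too few to test. Those 96 counts came from 7 of 125 Sst-positive cells, of which 3 were positive for Prkcq.

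Genes whose levels followed those of an isoform from cell to cell were found for Prkcd and Prkcb. The measure was Pearson's r of log2(counts per 10000 + 1) over the neurons of a sample, averaged over 9 samples, for 8977 genes at 10 CPM or more. Cells of a sample share a library and differ in depth, and no test was made. Prkcd was most like Ncdn (neurochondrin, mean r = 0.69), Itm2c (0.66) and Rap1gap (a GTPase-activating protein of Rap1, 0.65). Prkcb was most like Arpp21 (a cAMP-regulated phosphoprotein, 0.35) and Ckb (brain creatine kinase, 0.30). Between samples r varied widely for this pair, from 0.17 to 0.47 for Arpp21 and from 0.11 to 0.52 for Ckb. No gene reached 0.3 for Prkca, Prkce or Prkcz, and Prkch was below 10 CPM.

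Of 55 tested pathway genes around the kinases, 16 were called between Prkcd-negative and Prkcd-positive neurons, where 17.3% of all genes were called either way. The counts of single lists are to be read against that share, and no test compared the lists. Among 9 tested genes of Gq subunits and phospholipases C, 0 were called higher and 1 lower (Gna11, a Gq-family subunit, -0.34 ± 0.11, edgeR adjusted p = 0.0414), and that call was lost without sample 1, 2, 4, 5, 6 or 7 (0.0755 to 0.111). Of 4 protein kinase D and N genes none passed with edgeR (unadjusted 1, DESeq2 1). Of 12 diacylglycerol kinases and lipases, which consume diacylglycerol, 1 was higher and 1 lower, near the share over all genes. Dgkz averaged 42.2 CPM in Prkcd-negative and 11.2 CPM in Prkcd-positive neurons (1.98 ± 0.31, edgeR adjusted p = 0.000502). Dgkg averaged 126 and 250 CPM in those classes (-1.05 ± 0.14, edgeR adjusted p = 0.000159). Each moved the same way in 9 of 9 samples.

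Of 7 other proteins with a C1 domain, a domain that binds diacylglycerol in many but not all proteins, 3 were higher and 2 lower in Prkcd-negative neurons. Among all genes 9.74% were called higher and 7.59% lower than in Prkcd-positive neurons. Rasgrp2, an exchange factor of Rap and Ras, was at 3.25 ± 0.80 (edgeR adjusted p = 0.0115), and Chn2, the Rac regulator beta-chimaerin, at 2.23 ± 0.32 (adjusted p = 0.000261). Chn1 was also higher (0.57), while Unc13a (-0.72) and Unc13c (-0.66), which prime synaptic vesicles, were lower. The Unc13c call was lost when any sample but 2 or 5 was left out (0.0564 to 0.0762). With a positive cell defined by 1 count Rasgrp2 was at 0.70 and no longer passed (adjusted p = 0.419).

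Of 14 anchors, priming kinase and phosphatase genes 3 were higher and 1 lower, where 9.74% of all genes were called higher and 7.59% lower. The scaffold gene Akap12 averaged 21.6 CPM in Prkcd-negative and 1.09 CPM in Prkcd-positive neurons (5.24 ± 0.90, edgeR adjusted p = 0.00106), and at 1 count the difference was 0.34 (adjusted p = 0.841). Akap5 (0.52) and Sqstm1 (0.15) were higher. The Akap5 call was lost without sample 1, 4, 5, 7 or 8 (0.0611 to 0.0766), and that of Sqstm1 without sample 1, 2, 3, 5, 6, 8 or 9 (0.0537 to 0.103). The chaperone gene Hsp90ab1 was lower (-0.15 ± 0.04, edgeR adjusted p = 0.0109), a call lost without sample 4 (0.0566) or 9 (0.0546) and without the sample block (0.157).

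Of 9 PKC substrates tested 3 were higher and 1 lower in Prkcd-negative neurons, where 9.74% of all genes were called higher and 7.59% lower. Marcksl1, a MARCKS-like membrane and actin-binding substrate, averaged 157 ± 65.1 CPM in Prkcd-negative neurons and 15.9 ± 7.86 CPM in Prkcd-positive neurons (3.31 ± 0.20, edgeR adjusted p = 1.55e-07). Gap43, a growth cone substrate, averaged 1753 and 1182 CPM in those classes (0.54 ± 0.05, adjusted p = 1.23e-05). Snap25 (0.47) of the release machinery was also higher, and neurogranin (Nrgn, -0.50) was lower. Gna11, Chn1, Unc13a, Unc13c, Akap5, Sqstm1, Snap25 and Nrgn were named after their values were seen. Of 19 other settings, the calls of Gna11 passed in 6, Unc13c in 7, Akap5 in 12, Sqstm1 in 5 and Hsp90ab1 in 15, and those of the other pathway genes named here in 18 or 19. Across the 6 lists the median log2 fold change was -0.52 for the protein kinase D and N genes and 0.02 to 0.38 for the others, against 0.02 over all genes.

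**Figure D5:**
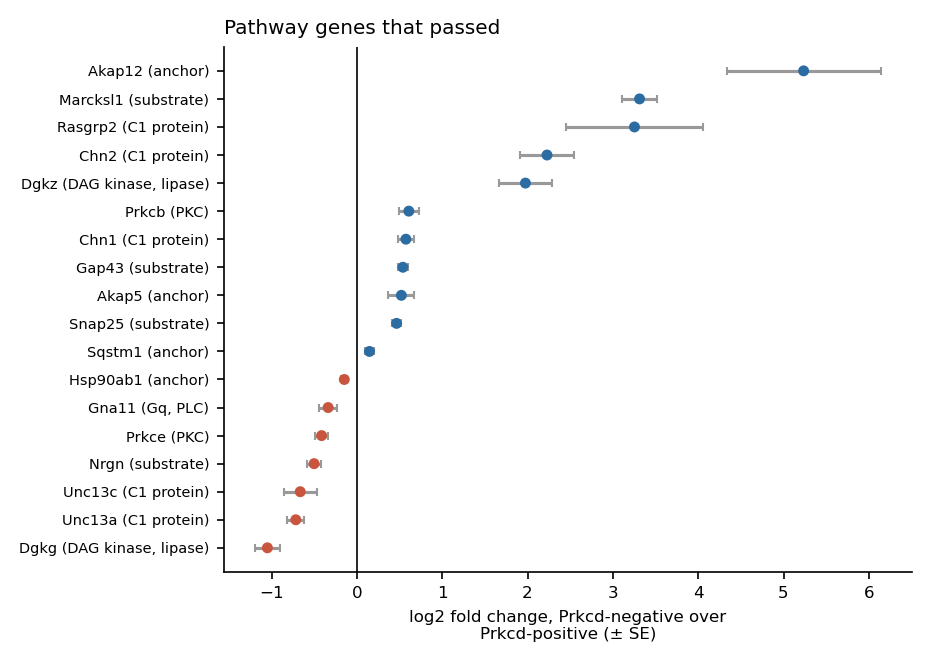
Pathway genes called between Prkcd-negative and Prkcd-positive neurons, with log2 fold change and SE on the x axis (positive is higher in Prkcd-negative neurons) and gene with its list on the y axis. Akap12 (5.24) and Marcksl1 (3.31) lie farthest to the right and Dgkg (-1.05) farthest to the left.

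In the splits of Prkcd-negative neurons by marker, edgeR called 2 of 52 tested pathway genes for Sst and 3 of 47 for Nr2f2. It called 0 of 51 for Isl1 and 0 of 52 for Foxp1. Among all genes, 2.21% (Sst), 0.993% (Nr2f2), 0.986% (Isl1) and 0.247% (Foxp1) were called either way. In Sst-positive against Sst-negative neurons the diacylglycerol kinase gene Dgkb (259 against 133 CPM, 0.94 ± 0.18, edgeR adjusted p = 0.0137) and Unc13c (61.4 against 13.05 CPM, 2.35 ± 0.44, adjusted p = 0.0112) were higher. In Nr2f2-positive against Nr2f2-negative neurons Unc13c (1.23 against 30.0 CPM, -5.41 ± 1.03, adjusted p = 0.0227), Rasgrp1 (14 against 80.0 CPM, -3.33 ± 0.73, adjusted p = 0.0491) and Akap5 (41.0 against 158 CPM, -2.14 ± 0.33, adjusted p = 0.00573) were lower. Of the Nr2f2 calls, Unc13c was lost without sample 1, 5, 6, 7 or 8 (0.0518 to 0.0654) and Rasgrp1 without sample 1, 2, 4, 5, 6, 7 or 8 (0.0518 to 0.123). Without Mbp-positive neurons none of these 5 genes passed with edgeR (adjusted p 0.0948 to 0.21), with 8 samples left for Sst and 6 for Nr2f2. Over the 19 other settings Dgkb passed in 16 and Unc13c in 17 for Sst, and Unc13c in 10, Rasgrp1 in 6 and Akap5 in 15 for Nr2f2. For Isl1 and Foxp1 edgeR called 0 of the pathway genes, where 10 and 9 had an unadjusted p under 0.05 and DESeq2 called 9 and 7. Among all genes, 1435 of 10243 and 1149 of 10535 had an unadjusted p under 0.05. DESeq2 called 194 of all genes higher and 833 lower for Isl1, and 145 and 434 for Foxp1.

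Set against Prkcd-positive neurons, up to 2 genes of each list are named in each comparison, so others may have passed too. Marcksl1 was higher in all 4 marker classes, at 3.06 ± 0.34 with Sst, 3.46 ± 0.36 with Isl1, 3.01 ± 0.33 with Nr2f2 and 2.48 ± 0.40 with Foxp1 (edgeR adjusted p 2.45e-05 to 0.0014). Those calls held in all 19 other settings for Sst and Foxp1 and in 18 for Isl1 (lost at 3 per 10000) and Nr2f2 (lost at 1 count). At 3 per 10000 the Isl1 comparison had 2 samples, and Marcksl1 was at 4.43 there. Dgkg was lower with Sst (-1.22), Isl1 (-2.17) and Foxp1 (-1.19), in 9 of 9 samples each, and passed in 19, 17 and 18 of 19 other settings for Sst, Isl1 and Foxp1. Chn1 was higher with Sst (0.64) and Foxp1 (0.85), and Chn2 with Nr2f2 (2.22) and Foxp1 (2.53), where Chn1 passed in all 19 other settings for both and Chn2 in 17 for Foxp1. The Nr2f2 call of Chn2 passed in 12 of 19 other settings. It was lost without sample 1, 2 or 7 (0.0535 to 0.0836), and at 3 per 10000 it was at 0.39 (adjusted p = 0.955). With Nr2f2 the phospholipase gene Plcb4 was higher, at 114 ± 53.5 CPM against 41.9 ± 19.1 CPM in Prkcd-positive neurons (1.44 ± 0.29, edgeR adjusted p = 0.0137), in 8 of 8 samples, and passed in 15 of 19 other settings (adjusted p up to 0.396). Gap43 was higher with Sst (0.59), Isl1 (0.76) and Nr2f2 (0.73), and Snap25 with Foxp1 (0.37). The Gap43 calls passed in 18, 16 and 18 of 19 other settings for Sst, Isl1 and Nr2f2, with an adjusted p of up to 0.836 for Isl1, and the Snap25 call in 15. Akap5 was higher (1.14) and Gnb2l1, the anchor RACK1, lower (-0.55) with Sst, passing in 19 and 17 of 19 other settings. Unc13a was lower with Isl1 (-1.07), and Unc13c (-5.67) and Hsp90ab1 (-0.27) with Nr2f2. Of 19 other settings, the Unc13a call passed in 16, the Unc13c call in 15 and the Hsp90ab1 call in 9. The Hsp90ab1 call was among others lost without sample 2, 4 or 8 (0.0515 to 0.0594).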

How the data were processed

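Raw read counts per gene and cell, not normalized, were deposited by the authors for 9 samples. Per the submitters' processing notes the build was NCBIM37 and Seurat was used; the sources used here do not name the aligner, annotation, strand or molecular identifiers. ERCC rows were dropped. Cells of low counts were kept, and doublets were not called. Counts were summed per sample and class, with at least 5 cells each, and tested with edgeR 4.0.16 (quasi-likelihood, TMM, filterByExpr, sample as a block, Benjamini-Hochberg over all genes) in R 4.3.3. SE was the log2 fold change divided by the root of F. The tests were tested on simulated data. Both classes come from the same sample, which is where the pairing comes from. Shares were also computed on cells thinned to 50000 counts, with Clopper-Pearson intervals. Alternatives were DESeq2 1.42.0, other scaling, thresholds and filters, and leaving out each sample. Gene totals were 8522750 to 22730327 per sample, which makes genes of few counts imprecise.

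The members and gene lists were chosen with earlier results of these data known. Named genes were the 6 isoforms and, per list and comparison, up to 2 called genes at 10 CPM or more that moved the same way in every sample, by size of change; up to 3 genes per isoform were named for likeness at a mean r of at least 0.3. Some genes of these lists are not reported here.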

Additional observations from a re-analysis of the deposited data

Results flagged for a closer look

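Of 111 groups of samples, 12 held a sample set far from the rest by Dixon's test, where chance gives about 1 in 20 for independent groups of normal values. These groups share cells, and some were at 0 in all samples but 1, so that share is a rough guide only. Classes below are of Prkcd-negative neurons unless named. Prkch was at 51.3 CPM in Foxp1-positive neurons of sample 1, with the next at 18.3 CPM, and at 26.4 CPM in Isl1-negative neurons of sample 1 (next 11.1 CPM). In Nr2f2-positive neurons it was at 1.13 CPM in sample 7 and 0 in the others. Prkcz was at 191 CPM in Nr2f2-positive neurons of sample 7 (next 108 CPM), and Prkcd at 17.5 CPM in Sst-positive neurons of sample 8 (next 8.59 CPM).

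The rarer Prkci and Prkcq also had such samples. Prkci was at 51.2 CPM in marker-free neurons of sample 7 (next 28.9 CPM). Prkcq was at 3.66 CPM in Nr2f2-positive (next 0.871 CPM) and 1.07 CPM in Sst-negative neurons of sample 9 (next 0.254 CPM), at 0.404 CPM in marker-free neurons of sample 5 and at 1.61 CPM in Prkcd-positive neurons of sample 1 (next 0 in both). In marker-free neurons of sample 4 the sum of the 5 other isoforms was 918 CPM (next 730 CPM) and that of all 6 was 919 CPM (next 745 CPM).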

How the results depend on the processing

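The higher Prkcb in Prkcd-negative neurons passed in 18 of 19 other settings and the lower Prkce in 19 of 19, and the higher Prkcb in the Foxp1 class in 19 of 19. The calls of Prkcb in the Nr2f2 split (8 of 19), of Prkce in the Isl1 class (11 of 19) and the Nr2f2 class (6 of 19) and of Prkch in the Isl1 class (5 of 17) were lost in the settings named beside them. Some of those settings left fewer samples, and the causes were not tested. Here a split sets marker-positive against marker-negative cells among Prkcd-negative neurons, and a class sets marker-positive Prkcd-negative cells against Prkcd-positive neurons. Of 1555 values of single genes under other settings, 1318 kept direction and call, 177 lost the call, 10 gained it and 50 changed sign, each of the last with an adjusted p of at least 0.577. Counts changed as follows where they moved by over 1.5 times. With cells positive at 1 count, the genes called numbered 280 higher and 375 lower (Prkcd-negative neurons), 3 higher and 0 lower (Sst split), 12 higher and 16 lower (Isl1 split), 5 higher and 9 lower (Nr2f2 split), 0 higher and 0 lower (Foxp1 split), 133 higher and 211 lower (Sst class), 112 higher and 267 lower (Isl1 class), 16 higher and 65 lower (Nr2f2 class), 109 higher and 205 lower (Foxp1 class). With cells positive at 1 count, sign changes were Prkce -0.15 (Foxp1 split), Prkca -0.65 (Isl1 class), Prkcz -0.13 (Isl1 class), Prkca -0.38 (Sst class), Prkca -0.34 (Prkcd-negative neurons), Prkca -0.22 (Sst split), Prkcz -0.043 (Sst split). Leaving out Mbp-positive neurons, the genes called numbered 557 lower (Prkcd-negative neurons), 32 higher and 25 lower (Sst split), 6 higher and 21 lower (Isl1 split), 3 higher and 8 lower (Nr2f2 split), 2 higher and 0 lower (Foxp1 split), 180 higher and 203 lower (Sst class), 302 higher and 426 lower (Isl1 class), 23 higher and 54 lower (Nr2f2 class), 130 higher and 178 lower (Foxp1 class). By DESeq2, the genes called numbered 340 higher and 644 lower (Sst split), 194 higher and 833 lower (Isl1 split), 143 higher and 766 lower (Nr2f2 split), 145 higher and 434 lower (Foxp1 split), 689 higher and 1009 lower (Sst class), 839 higher and 1734 lower (Isl1 class), 394 higher and 957 lower (Nr2f2 class), 523 higher and 834 lower (Foxp1 class). By DESeq2, sign changes were Prkcz 0.027 (Isl1 split), Prkce 0.0086 (Sst split). At 3 per 10000, the genes called numbered 241 higher and 243 lower (Sst split), 0 higher and 0 lower (Isl1 split), 0 higher and 4 lower (Nr2f2 split), 15 lower (Foxp1 split), 2 higher and 7 lower (Isl1 class), 19 higher and 31 lower (Nr2f2 class), 100 higher and 102 lower (Foxp1 class). At 3 per 10000, sign changes were Prkce 0.26 (Isl1 split), Prkcz 0.76 (Isl1 split), Prkca 0.23 (Foxp1 class), Prkcz -0.0077 (Nr2f2 class). With Prkcd-negative neurons at 0 counts, the genes called numbered 39 higher and 23 lower (Sst split), 0 higher and 3 lower (Isl1 split), 0 higher and 7 lower (Nr2f2 split), 0 higher and 0 lower (Foxp1 split), 210 higher (Sst class), 46 higher and 42 lower (Isl1 class), 20 higher and 45 lower (Nr2f2 class), 131 higher (Foxp1 class). With Prkcd-negative neurons at 0 counts, sign changes were Prkce -0.039 (Foxp1 split), Prkce 0.093 (Isl1 split), Prkcz 0.22 (Isl1 split), Prkca -2.29 (Isl1 class), Prkcz -0.016 (Isl1 class), Prkcz -0.016 (Nr2f2 class), Prkca -0.11 (Prkcd-negative neurons), Prkcz -0.067 (Sst split). Without the filter on low counts, the genes called numbered 24 higher (Isl1 split), 29 lower (Foxp1 split). Without the filter on low counts, sign changes were Prkcz -0.061 (Nr2f2 class), Prkcz -0.0070 (Sst split). With no replicate block, the genes called numbered 30 higher (Nr2f2 split), 33 higher and 15 lower (Foxp1 split), 175 higher (Nr2f2 class). With no replicate block, sign changes were Prkca 0.24 (Isl1 split), Prkcb 0.052 (Isl1 class), Prkce 0.011 (Sst split). Thinned to 50000 counts, the genes called numbered 31 higher (Nr2f2 split). Thinned to 50000 counts, sign changes were Prkca 0.19 (Isl1 split), Prkcz 0.026 (Nr2f2 split), Prkce 0.047 (Sst split). Under median-of-ratios scaling, sign changes were Prkcz 0.026 (Isl1 split), Prkce 0.0080 (Sst split). Over the omissions of single samples, the genes called numbered 951 to 1021 higher and 723 to 808 lower (Prkcd-negative neurons), 99 to 149 higher and 45 to 88 lower (Sst split), 16 to 36 higher and 24 to 54 lower (Isl1 split), 9 to 13 higher and 41 to 65 lower (Nr2f2 split), 9 to 29 higher and 0 to 20 lower (Foxp1 split), 283 to 331 higher and 312 to 369 lower (Sst class), 356 to 464 higher and 507 to 585 lower (Isl1 class), 69 to 107 higher and 135 to 168 lower (Nr2f2 class), 168 to 225 higher and 245 to 310 lower (Foxp1 class). Leaving out a sample also turned these log2 fold changes, given as lowest and highest: Prkca -0.42 and 0.19 (Isl1 split), Prkcz -0.10 and 0.029 (Isl1 split), Prkca -0.14 and 0.31 (Isl1 class), Prkcb -0.20 and 0.18 (Isl1 class), Prkcb -0.14 and 0.081 (Nr2f2 class), Prkcz -0.16 and 0.11 (Nr2f2 class), Prkcz -0.0080 and 0.30 (Sst class), Prkce -0.083 and 0.052 (Sst split), Prkcz -0.17 and 0.14 (Sst split). The limit of Prkcd-negative neurons to 0 counts and the removal of neurons under 20000 counts were chosen after seeing the data. The sample is the replicate block throughout, because both classes of a comparison come from the same sample. Without it Prkcb was at 0.64 (adjusted p = 0.00503) and Prkce at -0.42 (adjusted p = 0.000996) in Prkcd-negative against Prkcd-positive neurons. Few counts limit Prkch and Prkcq, and few cells limit Isl1, whose comparisons had 2 samples at 3 per 10000 and 3 at 0 counts of Prkcd.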
